A study of Mus musculus with 4 samples.

Results

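The genes described here are 10 members of the Notch pathway, 3 receptors (Notch1, Notch2 and Notch3), 3 ligands (Dll1, Dll3 and Jag1) and 4 transcription factors of the Hes and Hey families (Hes1, Hes5, Hes6 and Hey1). They were chosen by name from the 27293 genes of the deposited count table. Their values were not part of the rule, but earlier results of these data were known. RNA was sequenced from telencephalic tissue of C57BL/6 mouse embryos at embryonic day 13 (E13), in 4 libraries. WT 1 and WT 2 carry the genotype label WT, and cKO 1 and cKO 2 the label STINGf/f;Nestin-Cre. In cKO embryos a floxed part of the gene for STING, an adaptor protein of innate immune signaling, is deleted by Cre recombinase under the Nestin promoter. That promoter is active in neural progenitors and the cells derived from them, so other cells of the tissue, such as those of vessels, meninges and blood, are not its main target. The question was whether loss of STING changes the transcriptome of the developing cortex, and the comparison below asks this for the Notch pathway.

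Notch signaling passes between cells in contact. A ligand on one cell binds a receptor on its neighbor, proteases release the intracellular domain of the receptor, and this domain joins the DNA-binding protein RBPJ and switches on repressors of the Hes and Hey families. In the embryonic cortex, Hes1 and Hes5 keep radial glia in a progenitor state by repressing proneural genes, while cells that start to become neurons express Dll1 and Dll3. Hes6 stands apart in this group, since it opposes Hes1 and promotes neuronal differentiation.

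Sequences of some of the 10 genes are shown first. A promoter window of 250 bases before and 50 after the start was found for 8 of the 10 genes in RefSeq (GRCm38.p6), 10 windows in all because some genes have more than 1 start. Hes1 and Hey1 had no entry. The RBPJ motif GTGGGAA, searched on both strands, was present in 1 of the 10 windows, that of Hes5, and in 6.38% of 32851 promoters of the same length. The Hes5 window lies on the plus strand at chr4:154960673-154960972. It is shown because Hes5 is a direct target of RBPJ, and its 2 motifs, which begin 226 and 83 bases before the start and face in opposite directions, are in capitals:
Hes5 promoter: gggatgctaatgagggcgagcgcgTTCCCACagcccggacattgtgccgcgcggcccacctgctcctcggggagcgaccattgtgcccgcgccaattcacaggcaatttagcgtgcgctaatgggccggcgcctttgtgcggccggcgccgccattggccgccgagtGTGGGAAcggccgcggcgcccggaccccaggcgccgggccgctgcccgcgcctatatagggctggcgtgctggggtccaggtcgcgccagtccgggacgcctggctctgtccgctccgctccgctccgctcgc
The E-box CANNTG, the motif of proneural factors, was present in 7 of the 10 windows and in 72.3% of all promoters. A match describes letters in the window and not a bound site.

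The 4 transcription factors share a tetrapeptide near the end of the protein, WRPW in Hes proteins, where it recruits corepressors of the Groucho/TLE family, and the related YRPW in Hey1. The ends of their coding sequences (GENCODE M21) are shown to the stop codon because they hold this shared feature. The receptors and ligands were not searched for it. The codons of the tetrapeptide are in capitals:
Hes1: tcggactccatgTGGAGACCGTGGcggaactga
Hes5: gcctgcggcctcTGGCGGCCCTGGtga
Hes6: gctcagagtgtgTGGAGGCCTTGGtga
Hey1: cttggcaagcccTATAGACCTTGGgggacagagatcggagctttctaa
The tetrapeptide is followed by 2 residues in Hes1, by 7 in Hey1 and by none in Hes5 and Hes6. Although the residues are the same in the 3 Hes proteins, the codons differ between them.

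Some properties of the libraries bear on what follows. Depth was even, with 17209654 to 18533391 reads on genes per library. Levels are given as CPM, counts scaled to a common library size, and a gene with no read could have had up to 3, or 0.162 to 0.174 CPM. The counts of STING (listed as Tmem173) were 20, 19, 18 and 22 in WT 1, WT 2, cKO 1 and cKO 2, with a log2 fold change of 0.02 (SE 0.45), so its level did not separate the labels and whether reads fell in the deleted part could not be seen in counts per gene. WT and cKO therefore stand below for the libraries that carry these labels. WT 2 has the abbreviation nes in its title where WT 1 has wt, and 4 Y-linked genes summed to 0 reads in WT 2 and to 1848 to 3002 in the other libraries. WT 1 was the highest library for 9 of 12 marker lists. Its meninges markers summed to 297 CPM, beside 42.1 to 77.0 in the other libraries, and its choroid plexus markers to 62.5 CPM, beside 7.38 to 10.6. In contrast, the 10 radial glia markers summed to 2740 to 3010 CPM in all 4 libraries. The 10 neuronal markers summed to 5740 to 6760 CPM. Ventral telencephalon markers summed to 1150, 1090, 737 and 1150 CPM in WT 1, WT 2, cKO 1 and cKO 2. On this list cKO 1 was the low library. In whole tissue, fewer cells of a type and less RNA per cell cannot be told apart.

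All 10 genes were well covered, from 223 reads (Hes5 in cKO 1) to 3863 reads (Notch1 in cKO 2), and all passed the filter on low counts. Levels of different genes are compared per kilobase (kb) of exon, as CPM per kb, with the SD over the 4 libraries. Hes6 was the most abundant at 72.7 ± 9.50, followed by Dll1 at 22.2 ± 1.16 and Hey1 at 17.0 ± 1.74. The next genes formed a close series, Hes1 at 15.5 ± 1.25, Notch3 at 14.6 ± 1.40, Notch1 at 14.2 ± 1.08, Dll3 at 13 ± 2.22, Hes5 at 11.7 ± 2.16 and Notch2 at 10.7 ± 0.796. Jag1 was the lowest at 3.31 ± 0.821. Along this order, neighbors were separate in all 4 libraries only between Hes6 and Dll1, between Dll1 and Hey1, and between Notch2 and Jag1. The other 6 pairs of neighbors, from Hey1 down to Notch2, overlapped in their ranges over libraries. With the length of the longest coding transcript in place of all exons, Notch1 came before Notch3, and no other pair of neighbors changed order.

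**Figure D1:**
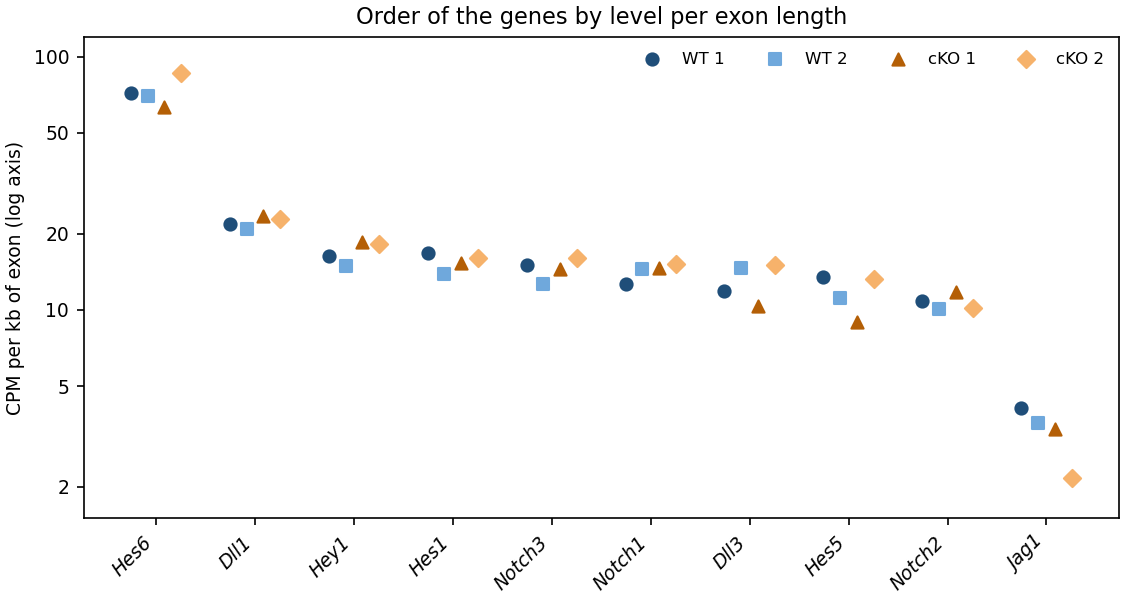
Level of each gene in CPM per kb of exon (log axis), with genes ordered by their mean and 1 point per library. Hes6 lies above 60 in every library and Jag1 below 5, while the 7 genes from Hey1 to Notch2 lie between 8.94 and 18.6.

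None of the 10 genes passed the test between the groups. By edgeR's quasi-likelihood test over 16145 genes, 0 of the 10 passed a fold change of at least 2 with an unadjusted p of at most 0.05, the thresholds of the study, against 0.811% of all genes tested. At an adjusted p under 0.05 the count was 0 of 10, and 0.0% of all genes passed by either edgeR or DESeq2. At an unadjusted p under 0.05 it was 0 of 10 by edgeR and 0 of 10 by DESeq2, beside 199 and 127 of all genes. This last count was 2 (Jag1 and Hes6) without cKO 1, where no gene of the 10 passed either of the other thresholds. The adjusted p was 0.9999 for each of the 10 genes (edgeR, Benjamini-Hochberg). The estimate was higher in cKO for 7 genes and lower for 3, with a median log2 fold change of 0.08, beside -0.01 over all genes tested. The median absolute log2 fold change was 0.13, beside 0.13 over all genes and 0.09 over the 8068 genes with a mean CPM in the range of these 10. Of those 8068 genes, 3 passed the thresholds of the study. For 9 of the 10 genes the 95% interval lay within a 2-fold change in both directions, and the exception was Jag1, whose interval reached down to 0.484 of the WT level. CPM below is normalized by the trimmed mean of M values (TMM), and means are given with the SD over 2 libraries. It is not stated whether the libraries of a group came from separate embryos or litters, so the tests measure the spread between these samples.

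**Figure D2:**
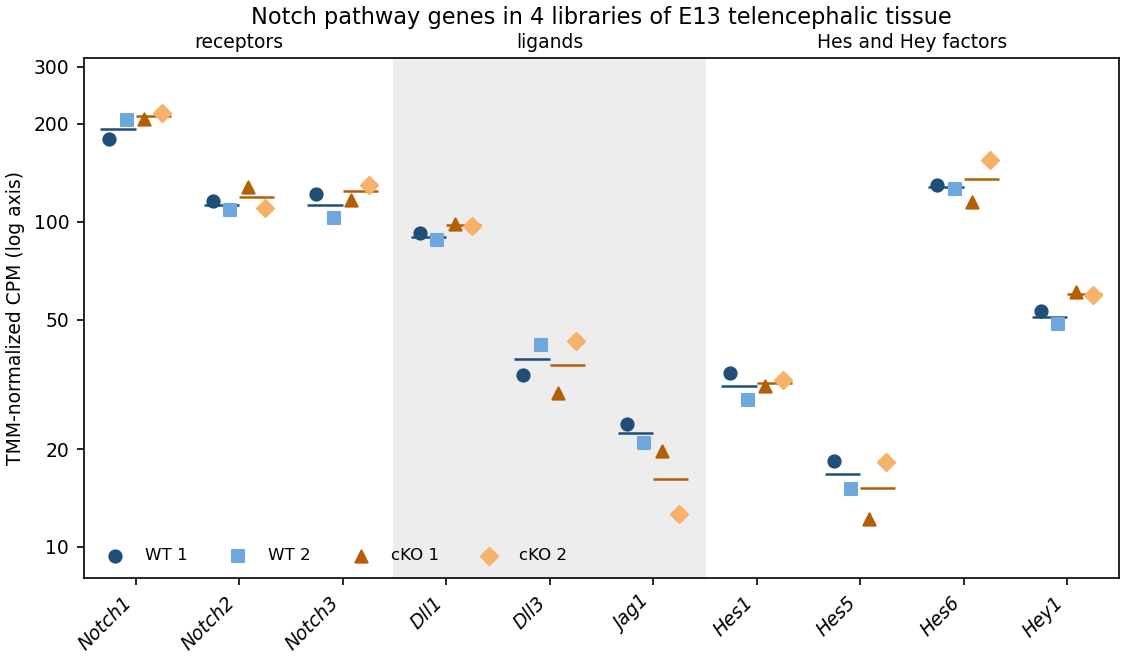
TMM-normalized CPM (log axis) of the 10 genes, with 1 point per library and a horizontal line at the mean of each group of 2. In 6 genes the WT and cKO points overlap, and the 4 where they do not (Notch1, Dll1, Jag1 and Hey1) are apart by small steps.

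The 3 receptors had estimates of 0.08 to 0.13 on the log2 scale. Notch1, the main receptor of cortical progenitors (ENSMUSG00000026923, chr2:26457903-26516663, minus strand), measured 180 and 206 CPM in WT 1 and WT 2 and 207 and 216 CPM in cKO 1 and cKO 2. WT 2 and cKO 1 were nearly equal, with 3791 and 3789 reads, and WT 1 was the low library. The mean was 193 ± 18.0 CPM in WT and 212 ± 6.44 in cKO (SD, n = 2), and the log2 fold change was 0.13 (SE 0.15, 95% interval -0.21 to 0.48). It was 0.04 without WT 1 and 0.24 without WT 2.

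Notch2, which together with Notch1 acts in radial glia (ENSMUSG00000027878, chr3:98013527-98150361, plus strand), measured 116, 109, 128 and 110 CPM in WT 1, WT 2, cKO 1 and cKO 2. The groups overlapped, since cKO 2 lay between the WT libraries and only cKO 1 was above both. The log2 fold change of Notch2 was 0.08 (SE 0.15, 95% interval -0.27 to 0.43), and it was -0.03 without cKO 1.

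Notch3, the receptor of vascular mural cells that is also expressed in neural progenitors (ENSMUSG00000038146, chr17:32120820-32166880, minus strand), measured 122, 103, 117 and 130 CPM in the same order. Both cKO values were above WT 2, but cKO 1 was below WT 1. The log2 fold change of Notch3 was 0.13 (SE 0.16, 95% interval -0.23 to 0.50). Markers of pericytes and mural cells summed to 159, 104, 99.3 and 102 CPM, so WT 1 was highest for this list, where 1 of its 9 tested genes was lower in cKO at the thresholds of the study and 0 of 10 markers were at 0 in every library. The part of these cells in the Notch3 values was not tested.

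The receptors were also compared by their shares. Of the reads on Notch1 to Notch4, Notch1 took 41.5% and 47.5% in WT 1 and WT 2 and 44.5% and 45.8% in cKO 1 and cKO 2. The exact 95% binomial (Clopper-Pearson) intervals, which cover counting error only, ran from 40.4% to 42.6% in WT 1 and from 46.4% to 48.6% in WT 2. The WT libraries thus differed beyond counting error, and both cKO libraries lay between them. Corrected for the summed length of all exons, the shares were 31.3% to 36.9% for Notch1 and 32.5% to 37.3% for Notch3. This depended on the length used, since per kb of the longest coding transcript the mean level was 21.3 CPM for Notch1 and 14.7 CPM for Notch3. Notch4, a receptor of endothelium, took at most 3.69% of the reads.

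Among the ligands, Dll1 was the most even of the 10 genes, with a ratio of 1.12 between its highest and lowest library. Dll1, the Delta ligand of newborn neurons and intermediate progenitors (ENSMUSG00000014773, chr17:15367354-15376872, minus strand), measured 92.1 and 87.7 CPM in WT 1 and WT 2 and 98.6 and 96.8 CPM in cKO 1 and cKO 2. The cKO libraries were both above the WT libraries, by a small margin. The mean was 89.9 ± 3.17 CPM in WT and 97.7 ± 1.30 in cKO (SD, n = 2), with a log2 fold change of 0.12 (SE 0.14, 95% interval -0.21 to 0.45).

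Dll3, a divergent ligand that acts within the cell to inhibit Notch (ENSMUSG00000003436, chr7:28293553-28302238, minus strand), measured 33.9, 41.7, 29.7 and 43.0 CPM in WT 1, WT 2, cKO 1 and cKO 2. The highest and the lowest library were both cKO, and the WT libraries lay between them. The log2 fold change of Dll3 was -0.06 (SE 0.22, 95% interval -0.57 to 0.46), and it was 0.19 without cKO 1 and -0.33 without cKO 2.

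Jag1, a Jagged ligand that is also expressed in the vessel wall (ENSMUSG00000027276, chr2:137081456-137116644, minus strand), had the largest estimate of the 10 genes. It measured 23.9 and 20.9 CPM in WT 1 and WT 2 and 19.7 and 12.6 CPM in cKO 1 and cKO 2, from 415, 385, 361 and 225 reads. The order put both cKO libraries below both WT libraries, but cKO 1 was close to WT 2 and cKO 2 stood apart from the other 3. The mean was 22.4 ± 2.09 CPM in WT and 16.2 ± 5.05 in cKO (SD, n = 2), and the log2 fold change was -0.47 (SE 0.25, 95% interval -1.05 to 0.11, adjusted p = 0.9999 by edgeR). This estimate rested on cKO 2, since the log2 fold change of Jag1 was -0.17 without cKO 2 and -0.83 without cKO 1, where the adjusted p of edgeR was 0.1077. It was -0.37 without WT 1 and -0.55 without WT 2. Endothelial markers summed to 234, 183, 159 and 162 CPM in WT 1, WT 2, cKO 1 and cKO 2, with 0 of 10 called. On this list and on that of mural cells both cKO sums were below both WT sums, the order also seen in Jag1. For mural cells cKO 2, at 102 CPM, was close to WT 2, at 104 CPM. On both lists cKO 2 was close to cKO 1, and 0 of the 10 endothelial markers were at 0 in every library. The part of these cells in the Jag1 values was not tested.

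Dll1 took the largest part of the reads on Dll1, Dll3, Dll4, Jag1 and Jag2, with 44.5%, 43.8%, 52.9% and 46.6% in WT 1, WT 2, cKO 1 and cKO 2. The share of Jag1 was 11.5%, 10.5%, 10.6% and 6.06%, so cKO 1 was close to the WT libraries and cKO 2 was lower, with an exact 95% binomial interval of 5.31% to 6.87%.

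Of the transcription factors, Hes1, a repressor that oscillates in progenitors (ENSMUSG00000022528, chr16:30064384-30067796, plus strand), measured 34.3, 28.3, 31.2 and 32.7 CPM in WT 1, WT 2, cKO 1 and cKO 2. The cKO libraries lay between the WT libraries, and the means were 31.3 ± 4.23 and 31.9 ± 1.04 CPM in WT and cKO (SD, n = 2). The log2 fold change of Hes1 was 0.03 (SE 0.18, 95% interval -0.39 to 0.45).

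Hes5, whose promoter is shown above (ENSMUSG00000048001, chr4:154960923-154962371, plus strand), measured 18.4, 15.1, 12.2 and 18.2 CPM in the same order. WT 1 and cKO 2 were nearly equal, and cKO 1 was the low library. The log2 fold change of Hes5 was -0.14 (SE 0.25, 95% interval -0.73 to 0.44), and it was 0.12 without cKO 1. Of the reads on Hes1 and Hes5, Hes1 held 65.1% and 65.2% in WT 1 and WT 2 and 71.9% and 64.2% in cKO 1 and cKO 2. This share of reads was therefore alike in 3 libraries. In cKO 1 the exact 95% binomial interval for Hes1, which covers counting error only, was 68.6% to 75.0%. Corrected for the length of all exons, Hes1 held 55.5%, 55.6%, 63.1% and 54.6% in WT 1, WT 2, cKO 1 and cKO 2.

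Hes6 (ENSMUSG00000067071, chr1:91411483-91414038, minus strand) measured 130, 126, 115 and 155 CPM in WT 1, WT 2, cKO 1 and cKO 2. The WT libraries were close to each other, with cKO 1 below and cKO 2 above them. The log2 fold change of Hes6 was 0.08 (SE 0.18, 95% interval -0.33 to 0.49), and it was 0.28 without cKO 1 and -0.14 without cKO 2.

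Hey1, a repressor induced by Notch in progenitors and vessels (ENSMUSG00000040289, chr3:8663359-8667256, minus strand), had the largest estimate in the direction of higher expression. It measured 53.3 and 48.5 CPM in WT 1 and WT 2 and 60.7 and 59.5 CPM in cKO 1 and cKO 2. The cKO libraries were nearly equal and both above the WT libraries. The mean was 50.9 ± 3.37 CPM in WT and 60.1 ± 0.792 in cKO (SD, n = 2), and the log2 fold change was 0.24 (SE 0.16, 95% interval -0.12 to 0.60, adjusted p = 0.9999 by edgeR). It stayed between 0.19 and 0.31 when any library was left out.

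**Figure D3:**
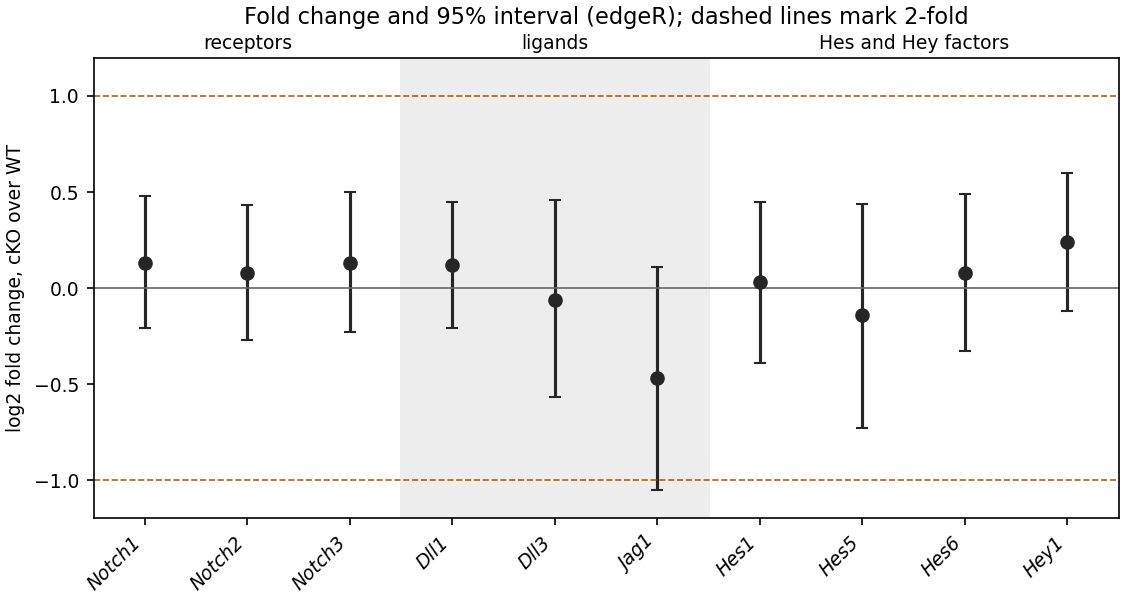
Log2 fold change of cKO over WT for the 10 genes from edgeR, with 95% intervals; the dashed lines mark a 2-fold change. Every interval includes 0, and only that of Jag1, from -1.05 to 0.11, crosses a dashed line.

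The WT and cKO values of 4 genes (Notch1, Dll1, Jag1 and Hey1) did not overlap, while 21.8% of all genes tested did not overlap. With 2 libraries against 2, the smallest p of an exact permutation test is 0.333. The difference between the groups was larger than both ratios between libraries of the same label only in Dll1 and Hey1. In the other 8 genes, the larger of the ratios between libraries of the same label exceeded the difference between the groups. When same-numbered libraries were compared, cKO over WT had the same sign in both comparisons for 5 genes (Notch1, Notch2, Dll1, Jag1 and Hey1) and opposite signs for Notch3, Dll3, Hes1, Hes5 and Hes6. Hes5, for example, had log2 ratios of -0.59 for cKO 1 over WT 1 and 0.27 for cKO 2 over WT 2.

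**Figure D4:**
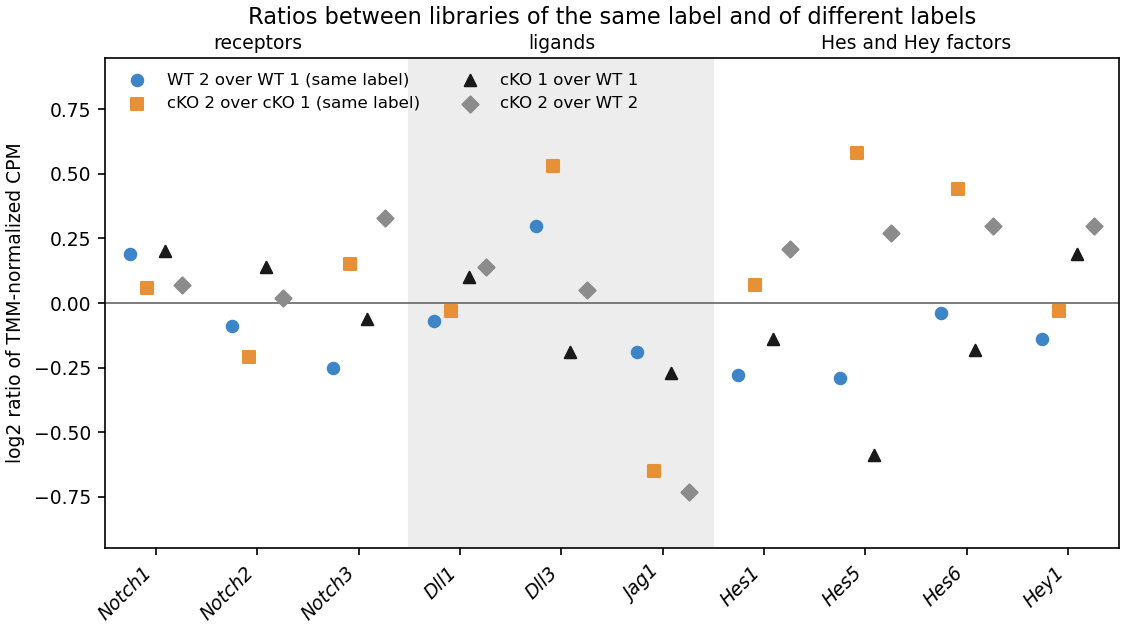
Log2 ratios of TMM-normalized CPM for the 10 genes, between libraries of the same label (WT 2 over WT 1, cKO 2 over cKO 1) and between labels (cKO 1 over WT 1, cKO 2 over WT 2). The ratio of the cKO libraries runs from -0.65 in Jag1 to 0.58 in Hes5, a wider range than the ratio of the WT libraries, from -0.29 in Hes5 to 0.30 in Dll3.

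The cKO libraries differed from each other along the GC content of the genes. Over 16120 genes with a sequence, the log2 ratio of cKO 2 to cKO 1 had a median of -0.45 in genes with a GC content of at most 44.8% and of 0.29 in genes with at least 54.4%. Pearson's r across genes was 0.552, beside 0.115 for WT 2 over WT 1. Between labels, Pearson's r was 0.4 for cKO 2 over WT 2 and -0.126 for cKO 1 over WT 1. Genes share the libraries and are not independent replicates. Among the 10 Notch genes the ratio of cKO 2 to cKO 1 also rose with GC content. Hes5, Hes6 and Dll3 have the highest GC contents of the 10 genes, 62.1%, 61.7% and 61.0%, and had log2 ratios of cKO 2 to cKO 1 of 0.58, 0.44 and 0.53. Jag1 has the lowest GC content of the 10 genes, 48.8%, which lies between the bounds of 44.8% and 54.4%. Its log2 ratio of -0.65 was lower than the median of -0.45 in genes with at most 44.8%. Pearson's r across the 10 genes was 0.882 and Spearman's rho 0.845, and Pearson's r was 0.808 across 49 other genes of the pathway. With an offset for GC content in each library, the group log2 fold change was -0.47 in Jag1, 0.22 in Hey1 and -0.20 in Hes5. Without the offset these values were -0.47, 0.24 and -0.14. With it, 0 of the 10 genes passed either threshold. Ventral telencephalon markers also differed between these libraries, with 737 CPM in cKO 1 and 1150 CPM in cKO 2. Whether GC content or the part of ventral cells accounts for the difference between the cKO libraries was not tested.

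**Figure D5:**
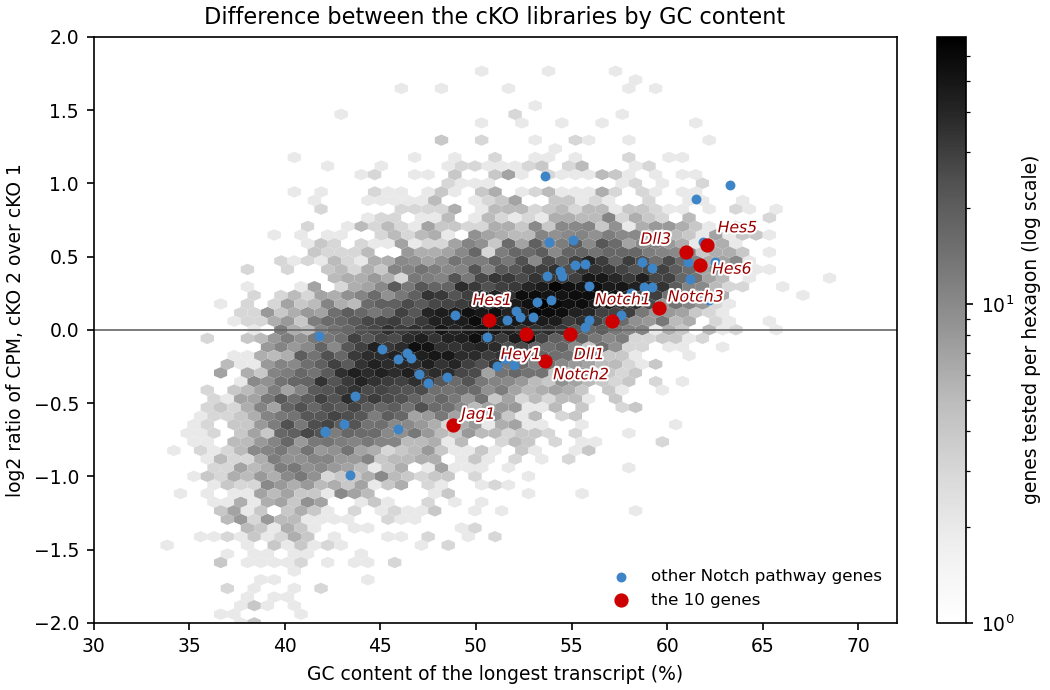
Log2 ratio of CPM in cKO 2 over cKO 1 against the GC content of the longest transcript (percent). Shading counts the genes tested within the axes (log scale), blue points are 49 other genes of the Notch pathway and red points the 10 genes, which run from Jag1 at the low end to Hes5, Hes6 and Dll3 at the high end.

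The rest of the pathway gave a similar picture. A list of 52 further genes held 51 with a row in the table, since Hes2 was not analysed here, and 49 passed the filter. Hes3 and Hes7 had at most 8 reads in any library and were not tested. Of the 49 genes, 0 passed the thresholds of the study, 0 had an adjusted p under 0.05, and 0 had an unadjusted p under 0.05 by edgeR or by DESeq2. The estimate was higher in cKO for 23 and lower for 26, with a median log2 fold change of -0.01. The groups did not overlap in 4 genes, Heyl, Dner and Nrarp, which were lower in cKO, and Ncstn, which was higher, beside 21.8% of all genes tested.

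The 6 other receptors and ligands had 1 estimate above 0 and 5 below. Dner, a Notch ligand of neurons, counted 2255 and 2725 reads in WT 1 and WT 2 and 2193 and 1813 in cKO 1 and cKO 2, with a log2 fold change of -0.33 (SE 0.16). Dlk1, a non-canonical ligand, counted 1238, 855, 561 and 1133 reads, with a log2 fold change of -0.32 (SE 0.34), and its highest and lowest libraries were WT 1 and cKO 1. The 3 tested genes among further Hes, Hey and feedback targets were all lower in estimate, led by Heyl, a target found in vessel walls as well as in neural cells. Heyl counted 189, 212, 131 and 174 reads, with a log2 fold change of -0.41 (SE 0.26).

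Of the 9 genes for receptor proteases, subunits of γ-secretase included, 5 had estimates above 0 and 4 below. Psenen and Psen2, which encode subunits of γ-secretase, had log2 fold changes of 0.25 (SE 0.22) and 0.23 (SE 0.33). In Psenen cKO 2 alone was high, with 923 reads beside 642, 649 and 622 in WT 1, WT 2 and cKO 1. Psen2 counted 135, 97, 111 and 165 reads, and its groups overlapped. Glycosyltransferases and genes of ligand endocytosis had 6 of 9 estimates above 0, inhibitors 4 of 9, and the nuclear complex with its corepressors 7 of 13. Numbl, a relative of the Notch inhibitor Numb, counted 1802, 2170, 1947 and 2515 reads, with a log2 fold change of 0.16 (SE 0.18). Rbpj, the DNA-binding partner of all Notch receptors, was not among the largest changes and is given for its role: it counted 2663, 2978, 3301 and 2368 reads, with a log2 fold change of -0.01 (SE 0.18). In Rbpj cKO 2 was the lowest library.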

How the data were processed

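RNA-seq of 2 WT and 2 cKO libraries was analysed, with groups and replicate numbers taken from the sample labels. Libraries were built from 2 µg of total RNA. The authors deposited a raw count of reads per gene for all 4 libraries, and 11 empty rows (0.0403% of all rows) were left out. The submitters' processing notes name Bowtie2 2.2.3, TopHat2 2.0.12 and HTSeq 0.6.0, and the build mm9. However, 97.2% of the genes found in GENCODE M21 start or end within 1 base of it, so positions were read as GRCm38. The strand setting of the counting is not given in the sources used here, so reads of overlapping antisense genes cannot be separated. Columns of the authors' own fold changes and p-values, and a second table of cKO 1 and WT 1 alone, were not used.

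Groups were compared on the counts in R 4.3.3, using edgeR 4.0.16 (TMM, filterByExpr, quasi-likelihood test, no covariate, Benjamini-Hochberg adjustment over 16145 genes). Members and gene lists were chosen with earlier results of these data known. Beside the 10 genes, the text names the 3 pathway genes with the largest estimates in each direction and STING. Rbpj, Nrarp and Ncstn were chosen after seeing their values. The test was also run on counts simulated from the means, dispersion and depths of these data, and the outcome of that run is not given here. Other normalizations, filters, DESeq2 1.42.0, a replicate block and leaving out each library were alternatives, and an offset for GC content was added after the data were seen. A library left alone in its group was assumed to vary like the other group.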

Additional observations from a re-analysis of the deposited data

How the results depend on the processing

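Of the 11 alternatives, 7 kept all 4 libraries. In these, 0 of the 10 genes passed either threshold, and 0 of the other pathway genes passed the thresholds of the study. Of 110 refitted log2 fold changes of the 10 genes, 7 changed sign, all when a library was left out: Notch2 was -0.03 without cKO 1, Dll3 0.11 without WT 2 and 0.19 without cKO 1, Hes1 -0.09 without WT 2, Hes5 0.01 without WT 1 and 0.12 without cKO 1, and Hes6 -0.14 without cKO 2. Notch1, Notch3, Dll1, Jag1 and Hey1 kept their direction in every refit, with ranges over libraries left out of 0.04 to 0.24, 0.03 to 0.26, 0.10 to 0.16, -0.83 to -0.17 and 0.19 to 0.31. The ranges of Notch2, Dll3, Hes1, Hes5 and Hes6 were -0.03 to 0.20, -0.33 to 0.19, -0.09 to 0.17, -0.44 to 0.12 and -0.14 to 0.28. The count over all genes at the thresholds of the study depended on the procedure. It was 131 (23 higher and 108 lower in cKO), 405 with no filter on low counts, 72 with at least 10 reads in every library and 65 with DESeq2. With the replicate number as a block it was 208. The numbers are only shared, since the labels do not say that they pair the embryos and there are only 2 pairs, whose deviations correlated at 0.139. With the replicate block 0 of the 10 genes passed either threshold, and Jag1 was -0.50 with an unadjusted p of 0.0351 (adjusted p = 1.0 by edgeR). Without cKO 1 the unadjusted p of edgeR was 0.00304 for Jag1 (adjusted p = 0.1077) and 0.0453 for Hes6 (adjusted p = 0.3167). In no other refit was an unadjusted p of the 10 genes under 0.05. Leaving out a library gave 104 (without WT 1, 57 higher and 47 lower) to 531 (without cKO 1), with 476 without WT 2 and 121 without cKO 2. The cause of these shifts was not tested. Depth was 223 reads or more for each of the 10 genes in every library, and too low to assess Hes3 and Hes7.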
